A study of Mus musculus with 15 samples.

Results

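Ccl3 and Ccl4 encode the CC chemokines MIP-1α and MIP-1β, small secreted proteins that activated macrophages release and that draw leukocytes to sites of inflammation. The crosslink sites of the RNA-binding protein tristetraprolin (TTP) in their mRNAs were collected from 6 iCLIP site lists as all sites on the sense strand within either gene. They numbered 477 of 162273 sites, of which 267 lay in Ccl3 and 210 in Ccl4. In the order 0 h, 1 h and 4 h of lipopolysaccharide (LPS), 29, 115 and 29 of them came from the GFP-TTP lists and 0, 268 and 36 from the GFP-TTP-AA lists.

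iCLIP marks the nucleotide at which UV light joined a protein to an RNA, and its unit is the unique cDNA, a count of distinct reverse-transcription products. The cells were bone marrow-derived macrophages from TTP-deficient C57BL/6 mice, immortalised with hcmyc and hRasG12V, which carried a tet-inducible vector for GFP-TTP or for GFP-TTP-AA. TTP-AA carries alanine in place of the serines that MK2, a kinase downstream of p38, phosphorylates. All 15 libraries came from cells given doxycycline (1 µg/ml) for 6 h, without LPS (0 h) or with LPS (1 µg/ml) for 1 h or 4 h. GFP-TTP was represented by 2, 4 and 2 libraries at these times and GFP-TTP-AA by 2, 3 and 2. The introduced protein was driven by a drug-inducible promoter and not by its own LPS-responsive gene, and these are transformed cell lines rather than primary cells. Bone marrow was taken from mice 6 weeks old.

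TTP is known to bind AU-rich elements, runs of the pentamer AUUUA in the 3′UTRs of cytokine and chemokine mRNAs, and to recruit the machinery that shortens the poly(A) tail and degrades the mRNA. LPS induces the transcription of such mRNAs through TLR4 and at the same time activates MK2, whose phosphorylation of TTP restrains that decay. The comparisons below ask where both proteins crosslinked to the Ccl3 and Ccl4 mRNAs, and how the number and position of their cDNAs differed between the wild-type protein and the mutant and between LPS times.

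Each list is the sum of its libraries, so no value here has a replicate error and every test compares pooled lists, not conditions. The lists held between 19167 and 174397 cDNAs, and the 3′UTR held 9.63% of all cDNAs in the GFP-TTP list and 53.6% in the GFP-TTP-AA list at 1 h. The 1 h lists were called with a setting that the headers of the other lists lacked, so LPS time and peak calling cannot be told apart. A gene without sites had no site that passed the authors' threshold, which is not the same as no crosslinks. iCLIP cDNAs follow the amount of an mRNA as well as its binding. From these lists, more Ccl3 or Ccl4 mRNA per cell cannot be told apart from more protein bound per mRNA. The paper, which also sequenced total RNA and ribosome footprints at 1 h, names Ccl3 among targets that differed between TTP-AA and TTP in translation only. Those data were not used here. No control libraries were used here. As a limited check of the material, 7 macrophage marker genes were looked up among the retained sites at 1 h. All 7 had 3′UTR cDNAs in the GFP-TTP-AA list (383 in all, with 3 for Cd68). Crosslink sites are not a measure of expression, so a marker at 0 does not exclude its cell type. In the GFP-TTP list at 1 h Itgam, Cd14 and Cd68 had 0, and Lyz2 held 68 of the 86 marker cDNAs, whereas the markers of T cells, B cells, fibroblasts and epithelial cells (3 genes each) had 0 in both 1 h lists. The other lists could not be checked in this way. At 0 h only Lyz2 (8 cDNAs, GFP-TTP) and Ptprc (6, GFP-TTP-AA) were above 0, and at 4 h all 7 macrophage markers had 0.

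Both genes lie on mouse chromosome 11 (mm10). Ccl3 (ENSMUSG00000000982.5) spans 83647844 to 83649355 on the minus strand, and its 3′UTR of 409 nt, in the last of 3 exons, spans 83647844 to 83648252. Ccl4 (ENSMUSG00000018930.3) spans 83662584 to 83664683 on the plus strand, and its 3′UTR of 302 nt, likewise in the last of 3 exons, spans 83664382 to 83664683. The Ccl3 3′UTR holds 5 AUUUA pentamers, beginning at nucleotides 159, 164, 188, 201 and 234 counted from 1 after the stop codon, and the Ccl4 3′UTR holds 2, at 117 and 173. A polyadenylation signal AAUAAA begins at nucleotide 386 of the Ccl3 and 280 of the Ccl4 3′UTR. The pentamer alone is common. It was found on the sense strand of 65.2% of 21045 annotated 3′UTRs of all lengths. Among the 922 3′UTRs within 10% of the length of that of Ccl3, 44.4% held at least 1 AUUUA and 0.976% at least 5. Among the 854 within 10% of the length of that of Ccl4, 37.9% held at least 1 and 11.9% at least 2.

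The stretches of RNA that carried most cDNAs are shown as 30 nt windows because the comparisons turn on them. They were read 5′ to 3′ from the GENCODE M21 transcripts, and capitals mark AUUUA. In the Ccl3 mRNA, the first window holds the abutting first and second pentamers, the next holds the third and the fourth, and the last ends in the fifth.
Ccl3 nt 147 to 176, chr11:83648077-83648106, minus strand: acuugaaauuuuAUUUAAUUUAauccuauu
Ccl3 nt 179 to 208, chr11:83648045-83648074, minus strand: uuuaauacuAUUUAauuuuguaAUUUAuuu
Ccl3 nt 209 to 238, chr11:83648015-83648044, minus strand: uauugucauacuuguauuugugacuAUUUA
In the Ccl4 mRNA, the first window holds the first pentamer, the next holds the second, and the last holds no AUUUA.
Ccl4 nt 116 to 145, chr11:83664497-83664526, plus strand: aAUUUAaaucucuguguagacuuuguuuug
Ccl4 nt 160 to 189, chr11:83664541-83664570, plus strand: uauuauuucuauuAUUUAuguuuuaguuau
Ccl4 nt 218 to 247, chr11:83664599-83664628, plus strand: caccauugcuguuucucugcuauuguggau
None of the 380 (Ccl3) or 273 (Ccl4) 30 nt words of these 3′UTRs occurred in a transcript of another gene on either strand, and the longest run shared by both 3′UTRs was 9 nt, so reads of this length without a mismatch could not be exchanged between these genes or with another annotated transcript.

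The crosslinks lay almost wholly in the 3′UTR. Of the 2356 cDNAs of both genes, 2338 were in the 3′UTR and 18 in the coding sequence. Sites in the 5′UTR, in introns, on the antisense strand and in the 200 nt downstream of the genes numbered 0. The coding sequence held 16 sites, and all 16 were in the GFP-TTP-AA list at 1 h. In Ccl3 they were 3 sites with 5 cDNAs in exon 2, between 127 and 133 nt upstream of the 3′UTR. In Ccl4 they were 13 sites with 1 cDNA each, 6 in exon 1 and 7 in exon 3, the latter between 8 and 30 nt upstream of the 3′UTR.

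The number of 3′UTR cDNAs was compared first. For Ccl3, the numbers at 0 h, 1 h and 4 h were 54, 244 and 51 in the GFP-TTP lists, against 0, 938 and 33 in the GFP-TTP-AA lists. For Ccl4, the GFP-TTP lists held 7, 67 and 27 and the GFP-TTP-AA lists 0, 886 and 31. In raw cDNAs, from lists of unequal size, both genes were thus highest at 1 h in either protein. Both had no site in the GFP-TTP-AA list at 0 h. As a share of the 3′UTR cDNAs of a list, both were highest at 4 h in either protein. Relative to all cDNAs of a list, only Ccl4 in GFP-TTP was higher at 4 h than at 1 h. Given the 6008 3′UTR cDNAs of the GFP-TTP-AA list at 0 h, counting error alone allows a gene at 0 a share of as much as 0.0499%. Crosslinks removed by the site threshold are not covered by this limit. The counts at a single nucleotide reached 39 cDNAs, summed over the 3 libraries of the GFP-TTP-AA list at 1 h. In each library the 4 random bases can distinguish 256 barcodes.

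Ccl3 ranked within the first 8 genes in each list that held sites in it, and Ccl4 did so at 4 h and in the GFP-TTP-AA list at 1 h. By cDNA number, Ccl3 ranked 8 of 738 genes with 3′UTR cDNAs in the GFP-TTP list at 0 h, 5 of 1295 at 1 h and 3 of 127 at 4 h. In the GFP-TTP-AA lists its ranks were 5 of 4468 at 1 h and 3 of 198 at 4 h. Ccl4 ranked 126, 18 and 8 in the GFP-TTP lists and 7 and 4 in the GFP-TTP-AA lists. Per length, the Ccl3 3′UTR held 59.7 cDNAs per 100 nt in the GFP-TTP list and 229 in the GFP-TTP-AA list at 1 h, and the Ccl4 3′UTR held 22.2 and 293. Ccl3 thus had the higher density with the wild-type protein and Ccl4 the higher density with the mutant.

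**Figure D1:**
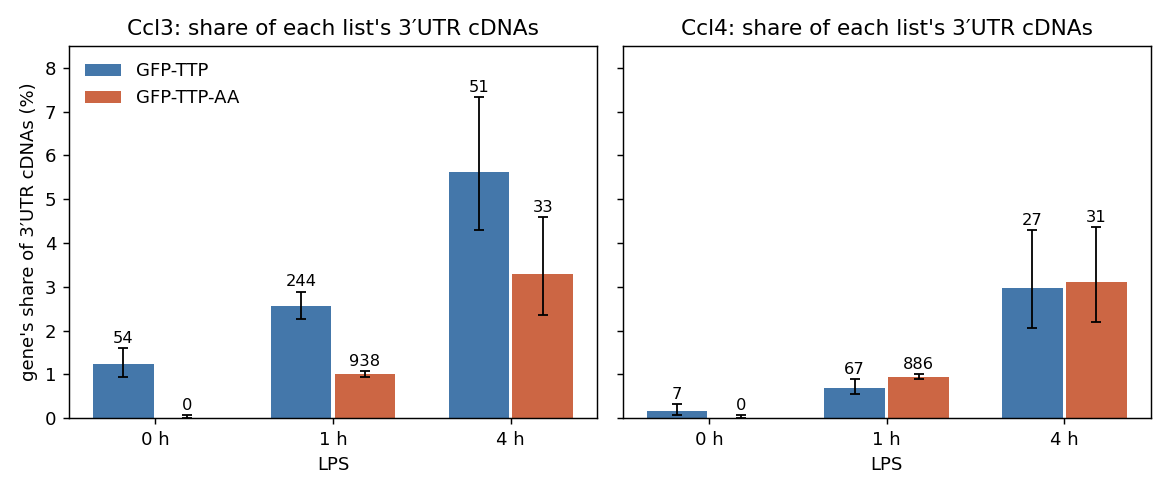
Bars show the share of all 3′UTR cDNAs of a list that fell in the Ccl3 (left) or Ccl4 (right) 3′UTR, in percent, for both proteins and the 3 LPS times. Error bars are Wilson 95% intervals (counting error only) and the number above each bar is its cDNAs. The GFP-TTP bar of Ccl3 is the taller of the pair at every time, with intervals that overlap at 4 h. The intervals of the Ccl4 pair overlap narrowly at 1 h and widely at 4 h.

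At 1 h, TTP-AA was compared with TTP to ask whether removal of the MK2 sites altered how often the protein was found on these mRNAs. The raw cDNA number was 3.84 times as high with TTP-AA for Ccl3 (95% interval 3.34 to 4.44) and 13.2 times as high for Ccl4 (10.3 to 17.2), against 9.78 times for all 3′UTR cDNAs. These intervals, from the binomial distribution, cover counting error only. The ratio of Ccl4 was 3.44 times that of Ccl3 (exact interval 2.57 to 4.65), a comparison in which the size of the lists drops out.

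Relative to all 3′UTR cDNAs, Ccl3 took 2.55% of the GFP-TTP list and 1.00% of the GFP-TTP-AA list, an odds ratio of 0.387 (0.335 to 0.448, two-sided Fisher exact test with Benjamini-Hochberg adjustment over 2065 genes, adjusted p = 4.29e-30). Ccl4 took 0.701% and 0.948%, an odds ratio of 1.36 (1.06 to 1.77) that did not pass the threshold (p = 0.0157, adjusted p = 0.143 in the same exact test). Of the 2065 genes, 6.39% were called, 1.99% higher and 4.41% lower in TTP-AA. A gene without GFP-TTP cDNAs could not be called lower, and 1295 genes had 3′UTR cDNAs in that list. The direction for Ccl3 depended on the denominator. With all cDNAs of the list as the base, its odds ratio was 2.19 (adjusted p = 1.60e-29 by the exact test) and that of Ccl4 7.56 (adjusted p = 9.56e-97), and 1754 genes were called higher and 9 lower. Ccl3 was therefore lower in TTP-AA only relative to other 3′UTRs, whereas the order of the members, with Ccl4 shifted further to TTP-AA than Ccl3, does not rest on a denominator. The call for Ccl4 depended on how sites were counted. With each site counted once its odds ratio was 0.266 (adjusted p = 8.09e-10 by the exact test) and its raw ratio 2.42, and with only sites of at least 2 cDNAs these were 2.52 (adjusted p = 7.71e-07 by the exact test) and 28.8. With each site counted once, the order of the members was no longer resolved either, since the ratio of Ccl4 was then 1.19 times that of Ccl3 (0.745 to 1.91).

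Most of the Ccl4 sites in the GFP-TTP list at 1 h were thinly covered. Of 48 sites, 37 had a single cDNA and the highest had 4, whereas 28 of the 67 Ccl3 sites had a single cDNA and the highest had 26. In the GFP-TTP-AA list, 23 of 116 Ccl4 sites and 28 of 136 Ccl3 sites had a single cDNA, and the highest sites had 36 and 39. The Ccl4 profile of GFP-TTP was thus the shallowest at this time, and its positions are correspondingly less certain.

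**Figure D2:**
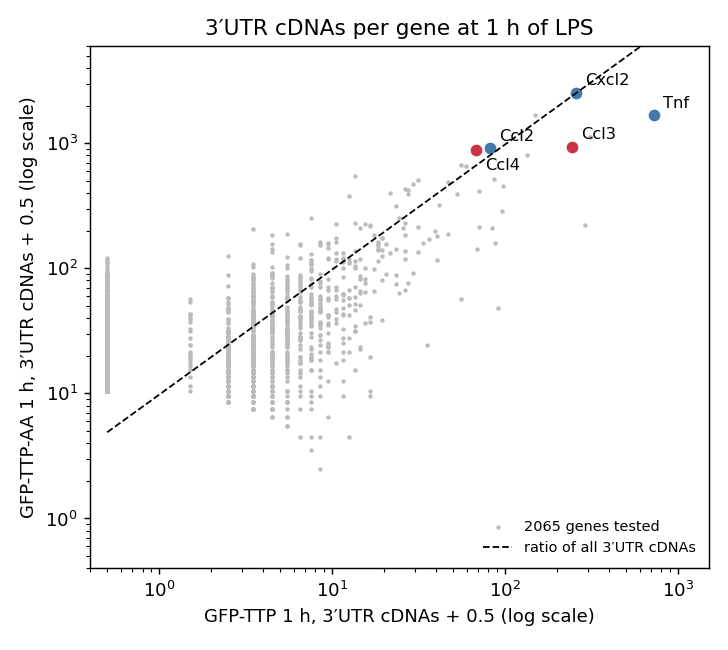
Each point is 1 of the 2065 genes with at least 10 3′UTR cDNAs over both 1 h lists, with cDNAs + 0.5 in the GFP-TTP list (x) and in the GFP-TTP-AA list (y), both on log scales. The dashed line is the ratio of all 3′UTR cDNAs, 9.78; Ccl3 and Tnf lie below it, and Ccl4 lies close to it beside Ccl2.

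Among the other cytokine mRNAs with many cDNAs, Tnf, which encodes the inflammatory cytokine TNF and is a classical TTP target, had a ratio of 2.30 (2.11 to 2.51), from 727 and 1673 cDNAs. Ccl2, which encodes a monocyte-attracting chemokine, had a ratio of 11.3 (8.97 to 14.3), and Cxcl2, which encodes a neutrophil-attracting chemokine, 9.83 (8.65 to 11.2). Ccl3 thus lay between Tnf and these chemokines, and its interval overlapped with none of the 3. The interval of Ccl4 overlapped with those of Ccl2 and Cxcl2. These raw cDNA ratios are set side by side as a description.

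Over all 2065 genes tested at 1 h, 1.99% were called higher and 4.41% lower in TTP-AA. Of 19 CC chemokine ligands, 6 had 3′UTR cDNAs at 1 h (Ccl2, Ccl3, Ccl4, Ccl7, Ccl9 and Ccl12). All 6 could be tested, 0 were called higher and 1, the member Ccl3 itself, was called lower in TTP-AA. Their median log2 ratio of cDNAs + 0.5 was 3.43, beside 4.52 over all genes tested. The latter includes genes that passed the minimum through the GFP-TTP-AA list alone, whose ratio depends on the added 0.5, and no difference is read from these medians. Ccl7, which attracts monocytes, had 11 and 118 cDNAs, and Ccl9 had 13 and 113, and neither passed the test. Of 16 other chemokine ligands, 2 were tested and 1 was called higher, Cxcl10, an interferon-inducible ligand, with 13 and 549 cDNAs (adjusted p = 6.22e-09 by the exact test). With so few genes tested, no result about these lists as a whole is read from the calls.

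At 0 h, the 54 Ccl3 cDNAs with GFP-TTP stood against 0 with GFP-TTP-AA. With a floor of 3 counts for the list at 0, GFP-TTP was at least 18-fold higher among retained sites. The floor leaves out cDNAs at sites below the authors' threshold, so it does not bound the ratio of all crosslinks. Ccl3 passed the exact test (adjusted p = 1.03e-18), where 30.7% of 241 genes were called and 13.3% were lower in TTP-AA. Ccl4, with 7 cDNAs in all, was below the minimum of 10 and was not tested. Tnf behaved as Ccl3 did at this time, with 53 cDNAs and 0 (adjusted p = 1.23e-18 by the exact test). Ccl3 and Tnf reached the minimum of 10 through the GFP-TTP list alone, so their calls add nothing to these counts.

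At 4 h, the ratio of TTP-AA over TTP was 0.647 for Ccl3 (0.405 to 1.02) and 1.15 for Ccl4 (0.663 to 2.00), against 1.10 for all 3′UTR cDNAs. These intervals include 1. As a share of 3′UTR cDNAs, Ccl3 made up 5.63% of the GFP-TTP list and 3.30% of the GFP-TTP-AA list (odds ratio 0.572, 0.354 to 0.914, adjusted p = 0.0206 by the exact test). Ccl4 made up 2.98% and 3.10% (odds ratio 1.04, 0.596 to 1.83, adjusted p = 0.895 by the exact test). Of only 25 genes tested at this time, 68.0% were called and 32.0% were lower in TTP-AA, so a call for Ccl3 did not stand out. As a share of all cDNAs of the list, in place of 3′UTR cDNAs, the ratio of TTP-AA over TTP at 4 h was 0.981 for Ccl3 and 1.74 for Ccl4, so the lower level of Ccl3 was not seen on that scale. Ccl4 again had the larger ratio, 1.77 times that of Ccl3, but the interval of 0.854 to 3.69 included 1.

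The LPS times were then compared within each protein, and these comparisons share the 1 h lists. In GFP-TTP, the share of 3′UTR cDNAs taken by Ccl3 was 1.24%, 2.55% and 5.63% at 0 h, 1 h and 4 h. For Ccl4 it was 0.160%, 0.701% and 2.98%. From 0 h to 1 h both passed the exact test (odds ratios 2.09 and 4.40, adjusted p = 4.45e-06 and 9.40e-05), where 47.5% of 276 genes were called and 23.9% were higher at 1 h. From 1 h to 4 h both passed again (2.28 and 4.35, adjusted p = 3.58e-05 and 4.60e-07 by the exact test), where 14.1% of 170 genes were called higher at 4 h. Only 127 genes had 3′UTR cDNAs in the GFP-TTP list at 4 h, and a gene at 0 there could not be called higher. The members' share of the 3′UTR list was thus larger at each later time, while their raw cDNAs were fewer at 4 h than at 1 h.

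In GFP-TTP-AA, Ccl3 took 0%, 1.00% and 3.30% and Ccl4 0%, 0.948% and 3.10%. From 0 h to 1 h the odds ratios had no upper bound and lower bounds of 16.5 and 15.5 (adjusted p = 1.83e-23 and 3.34e-22 by the exact test), where 12.4% of 2052 genes were called and 2.73% were higher at 1 h. Sites below the authors' threshold are not counted, so these bounds hold for retained sites only. Both members reached the minimum of 10 cDNAs through the 1 h list alone, so these calls add nothing to their counts. Only 894 genes had 3′UTR cDNAs at 0 h, against 4468 at 1 h, so most of the 2052 genes were at 0 there too. From 1 h to 4 h the odds ratios were 3.37 and 3.34 (adjusted p = 1.81e-06 and 5.15e-06 by the exact test), where 3.13% of 1980 genes were called and 3.03% were higher at 4 h. Only 198 genes had 3′UTR cDNAs in the GFP-TTP-AA list at 4 h, and a gene at 0 there could not be called higher. All 60 higher calls thus came from among these genes, and the percentage of 1980 makes such calls look rarer. The share of 3′UTR cDNAs in the list was itself 53.6% at 1 h and 5.22% at 4 h in TTP-AA, and 9.63% and 3.12% in TTP. With all cDNAs of the list as the base, the 4 h against 1 h odds ratios turned to 0.319 for Ccl3 and 0.317 for Ccl4 in TTP-AA and to 0.714 for Ccl3 in TTP, and that of Ccl4 in TTP was 1.38 and lost its call (adjusted p = 0.217 by the exact test). The change of Ccl3 in TTP also missed the threshold on this scale (adjusted p = 0.0766 by the exact test). The larger share at 4 h was thus called relative to other 3′UTRs, and relative to the whole list the direction held for Ccl4 in TTP alone, without a call.

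Within a list, the members can be set against each other directly. Ccl4 made up 11.5% (5.67 to 21.8), 21.5% (17.3 to 26.5) and 34.6% (25.0 to 45.7) of the cDNAs of both 3′UTRs in GFP-TTP at 0 h, 1 h and 4 h. In GFP-TTP-AA it made up 48.6% (46.3 to 50.9) at 1 h and 48.4% (36.6 to 60.4) at 4 h. Per nucleotide of 3′UTR, the Ccl4 level was 0.176, 0.372 and 0.717 times that of Ccl3 in GFP-TTP and 1.28 and 1.27 times in GFP-TTP-AA. The mutant thus had slightly more cDNAs on Ccl3 but the higher level per nucleotide on Ccl4, whereas GFP-TTP was higher on Ccl3 by both measures. At 4 h the intervals of the proteins overlapped, and an order there is not resolved.

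The position of the crosslinks was examined next. In Ccl3, the sites of GFP-TTP covered nucleotides 195 to 241 at 0 h, 158 to 262 at 1 h and 222 to 252 at 4 h. Those of GFP-TTP-AA covered 143 to 289 at 1 h and 208 to 266 at 4 h. All lists thus occupied the AU-rich middle of the 3′UTR and left both of its ends without sites. The stretch from 20 nt before the first to 20 nt after the last AUUUA, nucleotides 139 to 258, makes up 29.3% of the 3′UTR and held 98.0% of the GFP-TTP cDNAs (95.3 to 99.1) and 94.7% of the GFP-TTP-AA cDNAs (93.0 to 95.9) at 1 h. The share within 20 nt of AUUUA did not pass the threshold between the proteins (adjusted p = 0.123 by the exact test), where 15.5% of 116 genes were called.

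**Figure D3:**
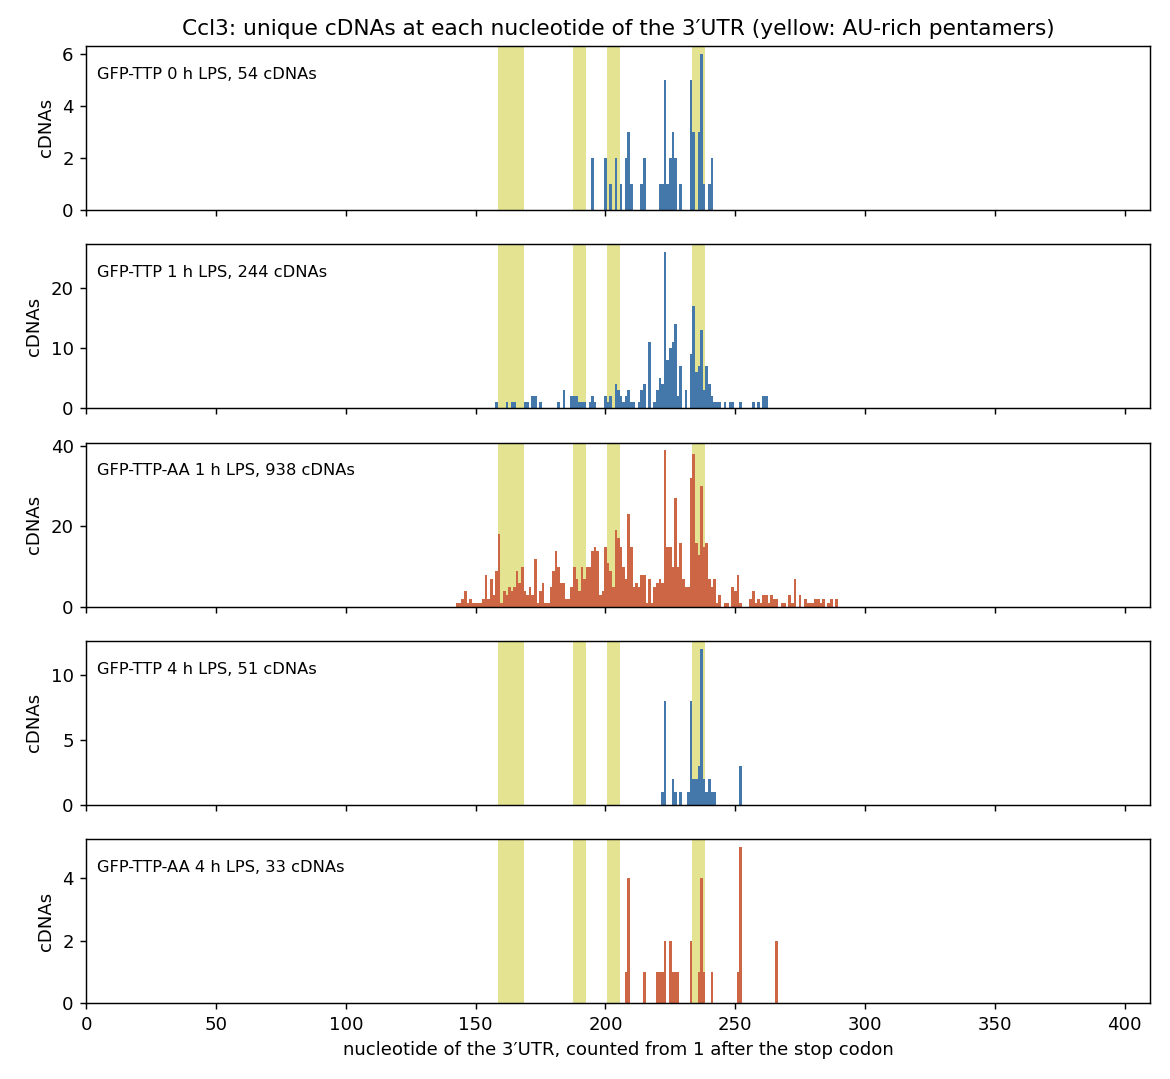
Unique cDNAs at each nucleotide of the Ccl3 3′UTR (x, counted from 1 after the stop codon) in the 5 lists that held sites, each with its own y axis, and yellow bands at the 5 AUUUA pentamers. The GFP-TTP cDNAs gather in front of and at the fifth pentamer at all times. At 1 h both proteins have cDNAs along all 5 pentamers, and those of GFP-TTP-AA are spread more evenly over them.

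Inside this element the proteins differed. At 1 h, the middle cDNA of GFP-TTP lay at nucleotide 225 and that of GFP-TTP-AA at 211. The shortest window that held 50% of the cDNAs was 15 nt long in GFP-TTP (221 to 235) and 36 nt in GFP-TTP-AA (203 to 238). Upstream of nucleotide 221, the median position over both lists, lay 29.9% of the GFP-TTP cDNAs and 55.0% of the GFP-TTP-AA cDNAs (adjusted p = 2.91e-10 by the exact test). The same test, chosen after the profiles had been seen, called 19.0% of 147 genes and 10.2% in the direction of Ccl3. For Ccl4 the shares upstream of nucleotide 169 were 35.8% and 49.4% (p = 0.0418, adjusted p = 0.146 by the exact test).

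Assigning each cDNA to its nearest pentamer, a step also added after seeing the data, resolved this shift. The zones so formed differed in length. In Ccl3 they were nucleotides 1 to 163, 164 to 178, 179 to 196, 197 to 219 and 220 to 409. Around the fifth Ccl3 pentamer, GFP-TTP had 174 cDNAs and GFP-TTP-AA 428, a ratio of 2.46 (2.06 to 2.95). At the fourth the numbers were 42 and 213 (5.07, 3.63 to 7.24), and at the third 17 and 146 (8.59, 5.18 to 15.1). At the second they were 9 and 74 (8.22, 4.11 to 18.7), and at the first 2 and 77 (38.5, 10.3 to 324). The ratio was thus lowest at the 3′-most pentamer, with an interval below those of the other 4. At the 5′-most, where the wild-type count was 2, the interval overlapped with those of the second and the third, and the order of these is not resolved. In Ccl4 the ratios at the first and second pentamer were 14.4 (8.78 to 25.0, from 17 and 244 cDNAs) and 12.8 (9.62 to 17.5, from 50 and 642), with intervals that overlapped. Along the Ccl3 windows printed above, the GFP-TTP and GFP-TTP-AA lists at 1 h held 11 and 141 cDNAs in the first, 34 and 275 in the next, and 173 and 396 in the last. The whole-list cDNAs also differed between the proteins, and the part of depth or of the site threshold in this pattern was not tested.

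**Figure D4:**
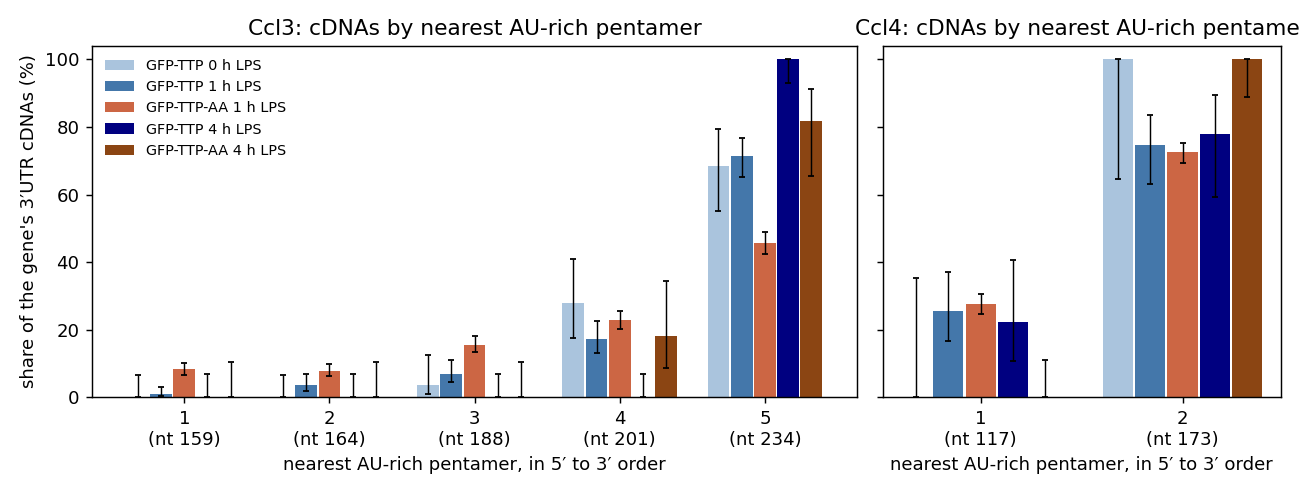
Bars show the share of a gene's 3′UTR cDNAs, in percent, that were nearest to each AUUUA pentamer of Ccl3 (left, 5 pentamers) and Ccl4 (right, 2 pentamers), with Wilson 95% intervals, in the 5 lists that held sites. At the fifth Ccl3 pentamer the GFP-TTP-AA bar at 1 h (45.6%) is lower than every other bar.

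The concentration of the wild-type protein in the zone of the fifth Ccl3 pentamer was present at every time. This zone, nucleotides 220 to 409, is the longest, so its share is not that of a like window around each pentamer. The share of this zone in the GFP-TTP cDNAs was 68.5% (55.3 to 79.3) at 0 h, 71.3% (65.3 to 76.6) at 1 h and 100% (93.0 to 100) at 4 h. With GFP-TTP-AA it was 45.6% (42.5 to 48.8) at 1 h and 81.8% (65.6 to 91.4) at 4 h. The wide pattern of the mutant was thus seen at 1 h, when it had 938 cDNAs, and at 4 h its 33 cDNAs were again nearest to the pair of pentamers at the 3′ side.

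The highest sites of Ccl3 lay at few nucleotides. Nucleotide 223 (position 83648030), a U located 13 nt from the centre of the nearest pentamer, was the highest Ccl3 site in both 1 h lists, with 26 cDNAs in GFP-TTP and 39 in GFP-TTP-AA. Nucleotide 237 (83648016), inside the fifth pentamer, was the highest GFP-TTP site at 0 h with 6 cDNAs and at 4 h with 12. GFP-TTP-AA at 4 h was led by nucleotide 252 (83648001), a C, with 5. Of the 67 GFP-TTP sites at 1 h, 66 (98.5%) were also GFP-TTP-AA sites at the same nucleotide, which were 48.5% of the 136 sites of the mutant. The GFP-TTP-AA list had a site at 100 of the 105 nucleotides (95.2%) between the first and the last GFP-TTP site, so this overlap says little about shared positions. All 25 GFP-TTP sites at 0 h were also sites at 1 h. Across the 137 nucleotides with a cDNA in either 1 h list, the counts of both proteins correlated with Pearson's r = 0.777 and Spearman's rho = 0.626, a description over neighbouring nucleotides that share sequence and libraries.

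In Ccl4, GFP-TTP sites covered nucleotides 180 to 189 at 0 h, 116 to 244 at 1 h and 128 to 196 at 4 h, and GFP-TTP-AA sites 98 to 254 at 1 h and 176 to 249 at 4 h. The crosslinks concentrated around the second pentamer, and at 1 h they lay on both of its sides. The shortest window with 50% of the cDNAs at 1 h was nucleotides 163 to 191 in GFP-TTP and 160 to 186 in GFP-TTP-AA. The window of nucleotides 160 to 189 held 33 of 67 cDNAs with GFP-TTP and 485 of 886 with GFP-TTP-AA at 1 h. It held all 7 GFP-TTP cDNAs at 0 h, 19 of 27 at 4 h, and 16 of 31 with GFP-TTP-AA at 4 h. Both pentamers lie 56 nt apart, and the stretch from 20 nt before the first to 20 nt after the second (97 to 197) held 82.1% (71.3 to 89.5) of the GFP-TTP and 89.7% (87.6 to 91.6) of the GFP-TTP-AA cDNAs at 1 h. Within 20 nt of either pentamer, which takes in 29.8% of this 3′UTR, lay 71.6% (59.9 to 81.0) and 77.2% (74.3 to 79.8), and the difference did not pass the threshold (adjusted p = 0.581 by the exact test).

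**Figure D5:**
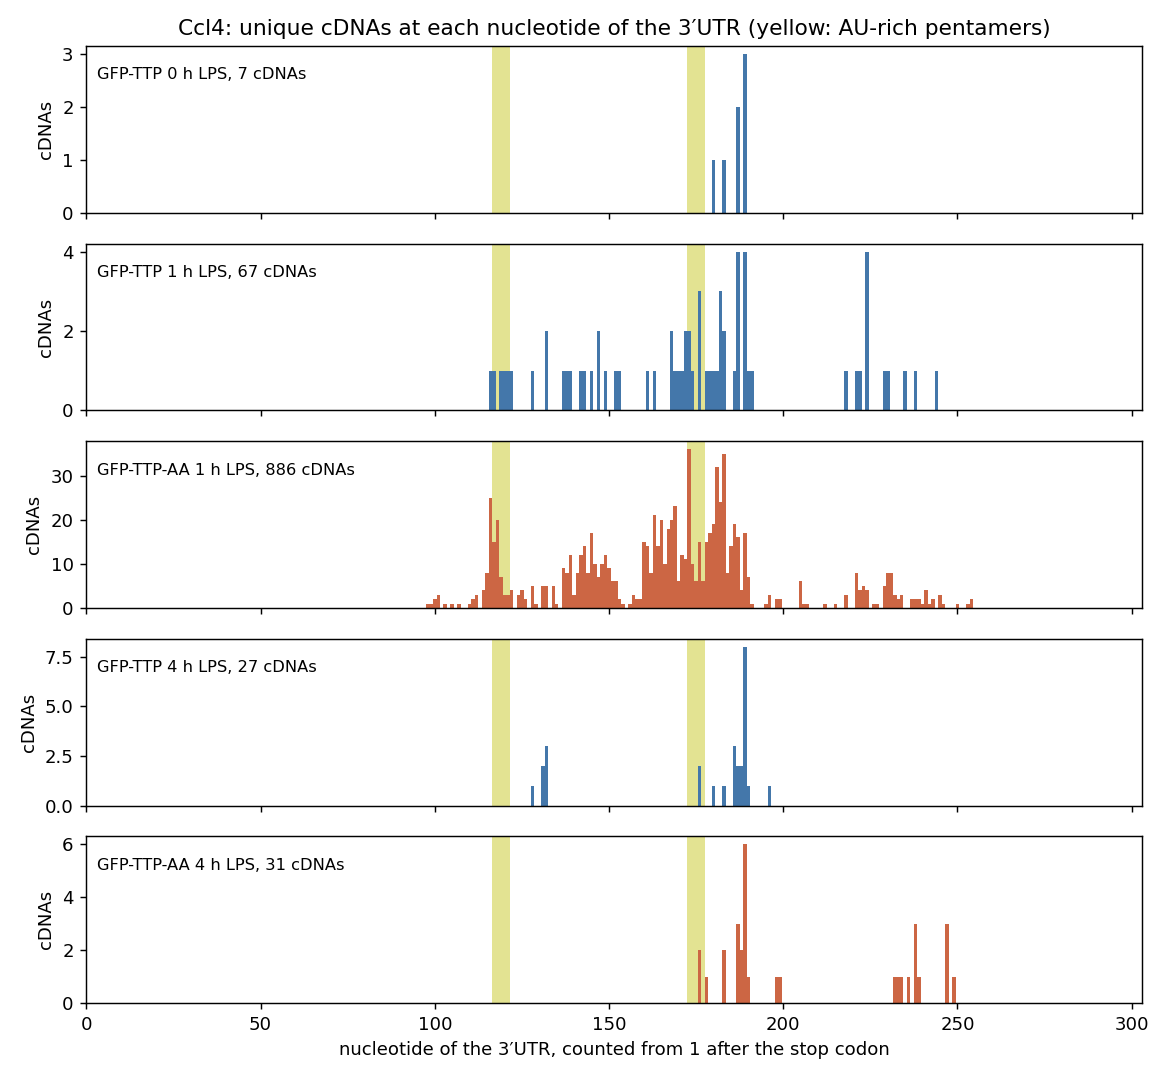
Unique cDNAs at each nucleotide of the Ccl4 3′UTR (x, counted from 1 after the stop codon) in the 5 lists that held sites, each with its own y axis, and yellow bands at both AUUUA pentamers. The cDNAs peak around the second pentamer, at 1 h on both of its sides, with smaller groups at the first pentamer and near nucleotide 224.

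Some Ccl4 crosslinks lay apart from AUUUA. The window of nucleotides 218 to 247 held 12 GFP-TTP and 73 GFP-TTP-AA cDNAs at 1 h, and 0 and 11 at 4 h. As shares of the Ccl4 cDNAs these were 17.9% and 8.24% at 1 h, and 35.5% for GFP-TTP-AA at 4 h. Nucleotide 224 (83664605), a U 49 nt from the centre of the nearest pentamer, was 1 of 3 sites that shared the highest GFP-TTP count at 1 h, with 4 cDNAs.

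Nucleotide 189 of Ccl4 (83664570), a U, led the GFP-TTP list at 0 h with 3 cDNAs and at 4 h with 8, and the GFP-TTP-AA list at 4 h with 6. At 1 h the GFP-TTP-AA list was led by nucleotide 173 (83664554), the first base of the second pentamer, with 36. Of the 48 GFP-TTP sites at 1 h, 46 (95.8%) were also GFP-TTP-AA sites, which were 39.7% of the 116 sites of the mutant. The GFP-TTP-AA list had a site at 99 of the 129 nucleotides (76.7%) in the GFP-TTP range. The profiles correlated with r = 0.477 and rho = 0.509 over 118 nucleotides, again as a description.

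The crosslinked base was mostly U. In Ccl3, U was the base at 72.1% of the GFP-TTP cDNAs and 61.8% of the GFP-TTP-AA cDNAs at 1 h, against 31.5% U in the 3′UTR and 49.2% in the stretch of nucleotides 139 to 258. In Ccl4 it was 71.6% and 66.6%, against 37.1% in the 3′UTR and 50.5% in the stretch of nucleotides 97 to 197. In all lists with sites, the share of U at the site was higher than the U content of the stretch around the pentamers.

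The genes most like the members across the 6 lists were sought by the distance between their shares of 3′UTR cDNAs, scaled to a sum of 1 over the lists, among 459 genes with at least 50 cDNAs. For Ccl4 the closest were Acod1 (distance 0.167), which encodes the enzyme that makes itaconate, then Ccl3 (0.202) and Vapa (0.207). For Ccl3 they were Eif4a1 (0.170), which encodes a translation initiation helicase, Entr1 (0.176) and Tfrc (0.177), which encodes the transferrin receptor. Their counts were far lower than those of the members, with 8 and 44 cDNAs for Acod1 and 15 and 64 for Eif4a1 in the 1 h lists. The likeness is one of relative shares over 6 lists, with few cDNAs behind the 4 h values.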

How the data were processed

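The deposited lists hold a score per nucleotide, the signed number of unique cDNAs. By the study's methods and the submitters' processing notes, the authors split the reads by their barcodes, collapsed PCR copies by 4 random bases, aligned with Bowtie to mm10 (GRCm38, Ensembl 75; Bowtie's version is not given in the sources used here), took the nucleotide before each read, added up each group's libraries and retained sites with an iCount false-discovery rate under 0.05 (100 permutations, 15 nt neighbourhood). The headers of both 1 h lists carry an extra mark, regions treated as one.

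Sites were assigned to GENCODE M21 regions with scipy 1.17.1, pandas 2.3.3 and numpy 2.4.6 under Python 3.11.15 in the order 3′UTR, CDS, 5′UTR, non-coding exon, intron, intergenic, and plotted with matplotlib 3.10.9. Each gene's 3′UTR cDNAs were set against all other 3′UTR cDNAs of the list with a two-sided Fisher exact test, adjusted over all genes with at least 10 cDNAs over both lists (threshold 0.05), after the test had been run on simulated data. Position tests required at least 10 cDNAs in each list. Shares have Wilson and ratios exact 95% intervals, which like the limit of 3 counts for a 0 cover counting error only. They do not cover cDNAs lost to the short random barcodes or to the authors' site threshold. Lists held between 19167 and 174397 cDNAs, so by counting error alone a count of 0 allows between 0.00172% and 0.0157% of a list. Similar genes needed at least 50 3′UTR cDNAs.

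Named genes were the members, Tnf, Cxcl2 and Ccl2, the 3 genes most similar to each member, and the chemokine list genes that passed the 1 h test. Ccl7, Ccl9 and Ccl12 were named in addition to account for their list. The chemokine receptor lists are not reported here. The members and lists were chosen with earlier results of these data known. The tested alternatives changed the counting of sites, the denominator, the gene minimum, the 3′UTR model, the element's flank and the distance between sites.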

Additional observations from a re-analysis of the deposited data

Results flagged for a closer look

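In raw cDNAs, from lists of unequal size, the comparison of TTP-AA with TTP went opposite ways at different LPS times for both members, and the differences between times were not tested. For Ccl3, the TTP-AA over TTP ratio was 0.647 at 4 h, with an interval (0.405 to 1.02) that includes 1, and 3.84 at 1 h. As a share of all cDNAs of the list the 4 h ratio was 0.981, and as a share of 3′UTR cDNAs Ccl3 was lower in TTP-AA at all 3 times. At 0 h, the GFP-TTP list held 54 Ccl3 cDNAs and 7 Ccl4 cDNAs and the GFP-TTP-AA list 0, whereas at 1 h the GFP-TTP-AA list held more cDNAs of both genes. The 1 h lists were called with a different header setting, and the part of that setting in these opposite directions cannot be told apart from LPS time. No group had per-library values, so no library could be examined as standing apart.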

How the results depend on the processing

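No paired analysis was possible because the libraries of each group were summed in the lists, and for the same reason no library could be left out. Of 105 recalculations of 18 results under 15 settings, 64 were labelled the same, 27 moved, 9 reversed, 3 gained a call and 2 lost one. Tests labelled the same kept their direction and call, and ratios and shares stayed within their interval. Numbers of called genes were compared by their total only, without their direction. Calls at 4 h against 1 h in TTP were so labelled with all cDNAs as the base, though 24 higher and 10 lower became 4 higher and 47 lower.

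The denominator had the widest effect. With all cDNAs, or all cDNAs outside the ribosomal RNA locus of chromosome 17, the odds ratio of TTP-AA against TTP at 1 h was 2.19 or 1.80 for Ccl3 (reversed) and 7.56 or 6.21 for Ccl4 (gained its call), with 1763 or 1653 genes called (1754 or 1641 higher, 9 or 12 lower) in place of 132 (41 higher, 91 lower). The 4 h against 1 h odds ratios in TTP were 0.714 or 0.748 for Ccl3 (reversed, with no call, adjusted p = 0.0766 or 0.135 by the exact test) and 1.38 or 1.44 for Ccl4 (call lost, adjusted p = 0.217 or 0.170 by the exact test). Those in TTP-AA were 0.319 or 0.329 for Ccl3 and 0.317 or 0.327 for Ccl4 (reversed). Genes called at 4 h against 1 h were then 276 or 261 in TTP-AA (5 higher in both) in place of 62 (60 higher), and 51 or 45 in TTP (4 higher in both) in place of 34 (24 higher). With no minimum of cDNAs, these calls numbered 54 in TTP and 109 in TTP-AA.

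Counting each site once gave ratios at 1 h of 2.03 for Ccl3 and 2.42 for Ccl4, 1.19 for Ccl4 over Ccl3, a Ccl4 odds ratio of 0.266 (reversed, adjusted p = 8.09e-10 by the exact test), 17 genes called higher and 89 lower, and TTP-AA shares in the AUUUA stretch of 81.6% for Ccl3 and 28.4% for Ccl4. With only sites of at least 2 cDNAs, the Ccl4 ratio was 28.8, its odds ratio 2.52 (adjusted p = 7.71e-07 by the exact test, gained its call), its ratio over that of Ccl3 6.82, its TTP share in the stretch 6.67%, and 64 genes were called (30 higher, 34 lower). A minimum of 20 cDNAs gave 50 higher and 72 lower at 1 h and 14 higher and 11 lower at 4 h against 1 h in TTP. Divided by libraries, the ratios were 5.13 and 17.6.

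The AUUUA stretch joined pentamers at most 50 nt apart, so for Ccl4 it held the first pentamer alone, with 17.9% of TTP and 19.9% of TTP-AA cDNAs. Joining over 60 nt, chosen after seeing the data, gave 82.1% and 89.7%. Without a flank, the TTP and TTP-AA shares were 88.9% and 82.7% for Ccl3 and 5.97% and 5.42% for Ccl4, and with a flank of 50 nt 100% and 99.8%, and 40.3% and 54.1%. Neither 3′UTR model altered a call of the members. Depth limits the Ccl4 profile of TTP, with 7 cDNAs at 0 h and 67 at 1 h, and the 4 h lists, in which 25 genes could be tested.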
